A study of Xenopus tropicalis with 84 samples.

Results

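The cytoplasmic ribosomal protein genes of the frog *Xenopus tropicalis* were followed through the first hours of development in normal embryos and in embryos depleted of Nup107, a scaffold protein of the nuclear pore. Members were taken by symbol alone, as *rpl* or *rps* followed by a number with at most a short suffix, together with *rplp0*, *rplp1*, *rplp2* and *rpsa*. This gave 78 of 34192 genes in the table, 29 of the small subunit and 49 of the large subunit. Their symbols number 77, because *rpl34* stands on 2 rows, and all 77 symbols are in the RefSeq gene list. Of the 78 rows, 77 passed the filter on low values, which asked for more than 0.4 TPM at 6 time points in a row in either condition, and *rpl3l* did not.

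Uninjected control (UIC) embryos were compared with siblings injected with 10 ng of a morpholino oligonucleotide against the start site of *nup107* (*nup107* MO). No control MO was sequenced in these libraries, so the injection is part of every difference. PolyA+ RNA of 10 pooled whole embryos was sequenced every 0.5 h from 2 to 12 hpf, which gave 21 libraries in each condition and 1 library for each time point. The values deposited for polyA+ and for ribosomal RNA depleted (ribozero) libraries are identical. They are treated here as polyA+ by their name and labels, and which library type they come from cannot be told. Values are TPM, a level per transcript length and relative to all transcripts with the ERCC spike-ins included. The number of reads is not kept in TPM, so depth is unknown. A single time point has no replicate, and the SDs below are over the 7 time points of a window and include real change over time.

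Each ribosome carries 1 copy of nearly every ribosomal protein, so that cells need these proteins in matched amounts. In vertebrates their mRNAs begin with a terminal oligopyrimidine (TOP) tract, through which growth signals control their translation as a group. A frog egg is loaded with maternal ribosomes, and the early embryo lives on that stock before it makes its own in quantity.

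Across the 42 libraries, 4.46% to 6.35% of the TPM belonged to ERCC spike-ins. Of 4 maternal markers, *gdf1* (192 TPM at 2 to 5 hpf and 42.6 TPM at 9 to 12 hpf in UIC) and *dazl* (182 and 125 TPM) fell, while *zar1* (45.5 and 34.3 TPM) and *vegt* (449 and 452 TPM) did not pass (limma adjusted p = 0.0935 and 0.511). All 7 rows of zygotic markers rose in UIC, among them *t*, with 0.0257 TPM and 217.6 TPM. Over the course *gdf1* was lower in *nup107* MO than in UIC by a log2 difference of −0.14 (limma adjusted p = 0.000976). Members also shared small steps between neighbouring libraries. The median member lay 0.17 above the mean of its neighbours on the log2 scale in the UIC library of 3.5 hpf, 0.20 below it (−0.20) in that of 6.5 hpf and 0.15 below it (−0.15) in the *nup107* MO library of 3 hpf. The part of these steps in the results was not tested.

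Ribosomal protein mRNA held a flat share of the TPM outside the spike-ins until about 6.5 hpf and then climbed to the end of the course. In UIC the members together took 1.48% of all TPM outside the spike-ins at 2 hpf, 1.57% at 6.5 hpf, 2.39% at 8 hpf, 4.55% at 10 hpf and 6.78% at 12 hpf. In *nup107* MO the share was 1.59%, 1.69%, 2.68%, 4.73% and 6.88% at the same times. The summed level in UIC was 14899 ± 763 TPM (SD, 7 time points) early, at 2 to 5 hpf, and 48338 ± 11377 TPM late, at 9 to 12 hpf, a ratio of 3.24. In *nup107* MO it was 14961 ± 679 TPM and 48592 ± 12135 TPM, a ratio of 3.25. Both subunits moved alike, with ratios in UIC of 3.20 for the small and 3.27 for the large subunit. In RNA of whole embryos, more cells of a type, more RNA in each cell and, if the libraries are polyA+, longer polyA tails cannot be told apart.

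**Figure D1:**
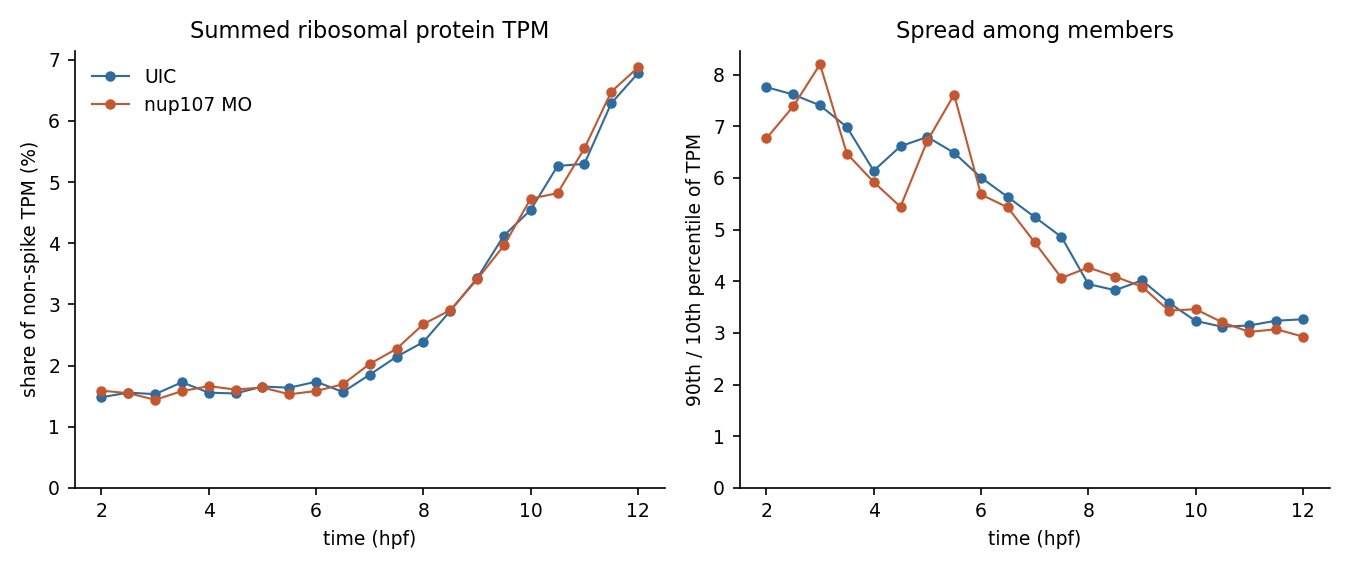
Left, summed TPM of the 78 members as a percentage of all TPM outside the spike-ins (y axis) against time in hpf (x axis). Right, the 90th over the 10th percentile of TPM among the 74 members with a mean of at least 20 TPM. Each point is 1 library, blue for UIC and orange for *nup107* MO. The share stays under 2% up to 6.5 hpf and ends at 6.78% and 6.88%, while the percentile ratio falls from 7.76 to 3.26 in UIC.

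The rise ran through nearly the whole set. Between 2 to 5 and 9 to 12 hpf in UIC, 74 of the 77 tested members rose and none fell (limma, Benjamini-Hochberg adjusted p under 0.05 over 15011 genes), where 29.5% of all tested genes rose and 47% fell. The members' median log2 change was 1.83, against −0.26 over all tested genes. At an unadjusted p under 0.05, 74 members passed, all of them higher, and 11676 of the 15011 genes passed in either direction. In *nup107* MO 75 members rose, against 29.5% of all tested genes, and 1 fell, where 48.7% of all tested genes fell. The members' median log2 change there was 1.79, against −0.28 over all tested genes. Scaling by median ratios moved the median of all genes in UIC from −0.26 to 0.13 and the share of calls that were higher from 38.5% to 55.7%, and 76 members then rose, with a median of 2.31.

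The largest log2 changes in UIC were those of *rpl32*, *rpl37* and *rpl12*. *rpl32*, a large subunit protein, had a lowest, median and highest level of 35.2, 40.4 and 51.4 TPM in the 7 UIC libraries of 2 to 5 hpf and of 438, 721 and 1075 TPM in those of 9 to 12 hpf. Its log2 change was 4.04 ± 0.19 (SE, limma adjusted p = 3.72e-11). *rpl37*, a small zinc-binding protein of the large subunit, went from 82.6, 110 and 123 TPM to 791, 1732 and 2455 TPM, a log2 change of 3.87 ± 0.21 (limma adjusted p = 1.76e-10). For both genes every late library stood above every early one. At 12 hpf *rpl37* was the most abundant member in both conditions, with 2455 TPM in UIC and 2402 TPM after depletion.

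*rpl12*, a protein at the base of the stalk, changed by 3.83 ± 0.20 at a far lower level, from 0.590 ± 0.406 TPM to 21.7 ± 5.84 TPM. The added 1 TPM understates this change, as its late mean was 36.8 times its early mean, against 17.5 times for *rpl32*. The small subunit proteins *rps3a* and *rps23*, of which *rps23* lies at the decoding centre, followed. *rps3a* had a mean of 44.2 ± 3.00 TPM early and 598 ± 192.9 TPM late, and *rps23* had 79.7 ± 6.08 TPM and 968 ± 303 TPM. Their log2 changes were 3.66 ± 0.19 and 3.52 ± 0.18. In all, 65 of the 77 tested members had a log2 change over 1, 28 over 2 and 8 over 3. How many of all tested genes passed these sizes was not counted, so the counts describe the members alone.

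Several members that were abundant from the start rose less than the median member. *rps18*, a protein of the head of the small subunit, had 976, 1027 and 1072 TPM as its lowest, median and highest early level and 1298, 1399 and 1539 TPM late. It was the most abundant member at 2 hpf, with 1059 TPM in UIC and 1022 TPM after depletion, and its log2 change of 0.46 ± 0.07 (limma adjusted p = 3.01e-05) was the smallest among those that rose. *rps10*, which sits near the mRNA entry, rose by 0.66 ± 0.10 on the log2 scale, from 460 ± 19.2 TPM to 736 ± 110 TPM. *rpl13* and *rps14*, proteins of the large and small subunit, were also high early, at 644 ± 36.1 TPM and 464 ± 31.4 TPM, and rose by 0.92 ± 0.10 and 1.31 ± 0.10.

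**Figure D2:**
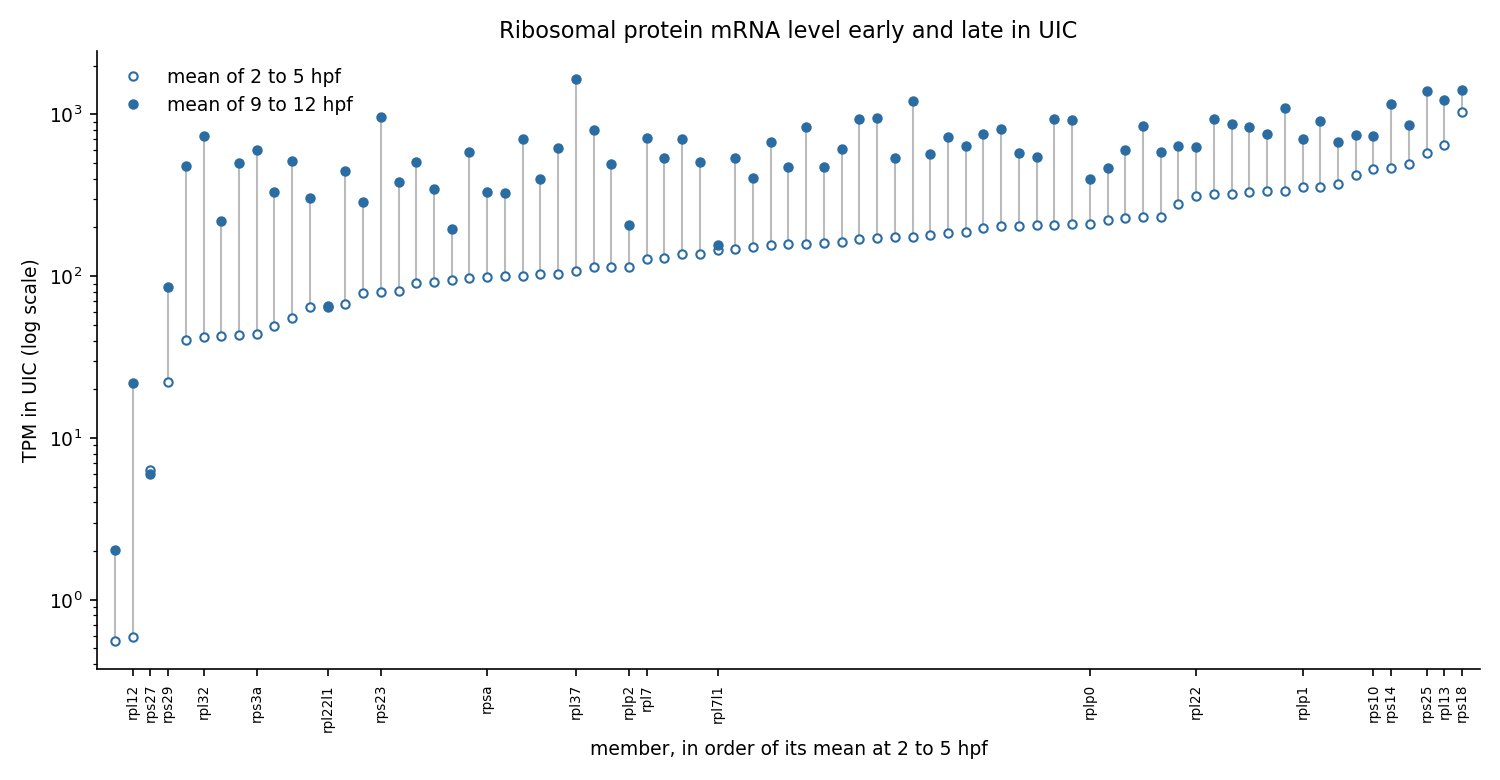
Mean TPM in UIC (y axis, log scale) of each of the 77 tested members (x axis, in order of the early mean, with some members labelled), at 2 to 5 hpf (open points) and 9 to 12 hpf (filled points), each the mean of 7 libraries. Lines join the 2 means of a member. Late points lie above early ones except for *rps27* and *rpl22l1*, and among the longest lines are those of *rpl12* and *rpl32*, on the left.

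With low members gaining more than high ones, the levels drew together. Among the 74 members with a mean of at least 20 TPM, the 90th percentile of TPM was 7.76 times the 10th in UIC at 2 hpf and 3.26 times at 12 hpf, and 6.76 and 2.93 times in *nup107* MO. The window medians of this ratio were 6.98, 5.24 and 3.24 in UIC at 2 to 5, 5.5 to 8.5 and 9 to 12 hpf, and the ranges of the first window (6.14 to 7.76) and the last (3.12 to 4.02) did not overlap. The 10 highest members held 35.2% of the summed level at 2 hpf and 24.6% at 12 hpf in UIC, and 34.1% and 23.8% in *nup107* MO. Because a member that starts low can rise further on a ratio scale, the early level and the rise are not independent measures.

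On the TPM scale most onsets of the rise fell from 7 to 8 hpf in both conditions. Onset was taken as the first time point after 5 hpf from which a member stayed above its own highest early level. By this rule onset cannot fall before 5.5 hpf. In UIC it ranged from 5.5 to 9 hpf over the 74 risen members, with a median of 7 hpf: 14 began by 6.5 hpf, 52 from 7 to 8 hpf and 8 later. The earliest, at 5.5 hpf, included *rpl3*, *rpl7*, *rpl17*, *rpl19*, *rpl32*, *rps3a* and *rps4x*. In *nup107* MO onset ranged from 6 to 12 hpf. The median was also 7 hpf, with 26 members by 6.5 hpf, 46 from 7 to 8 hpf and 3 later. These counts rest on single libraries, among them the UIC library of 6.5 hpf named above, and the difference between conditions was not tested. Onsets of members were not computed under another scaling. The summed UIC level stayed above its highest early value from 7 hpf on TPM. Scaled by ERCC spike-ins it did so from 5.5 hpf (17432 TPM, against at most 15906 TPM early). In *nup107* MO the summed level did so from 6.5 hpf on both scales. The median time at which a risen member reached the midpoint between its early mean and its 12 hpf level was 9.66 hpf in UIC and 9.72 hpf in *nup107* MO.

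Before that rise some members already changed within the cleavage and blastula window. The mean log2 level at 4 to 5 hpf was more than 0.5 above that at 2 to 3 hpf in both conditions for 4 members, *rpl26*, *rpl7*, *rpl36a* and *rpl5*. *rpl26*, a protein near the exit tunnel, went from 36.0 to 74.2 TPM in UIC and, with the MO, from 41.2 to 83.8 TPM. *rpl5*, which carries 5S rRNA into the large subunit, went from 125 to 193.5 TPM and from 135 to 215 TPM. The levels of 5 members were lower by more than 0.25 in both, *rps27a*, *rps13*, *rpl7l1*, *rpl4* and *rplp1*. *rps27a*, which encodes a small subunit protein fused to ubiquitin, went to 131 TPM in UIC, a log2 change of −0.58, and, with the MO, from 194.6 to 142 TPM, a log2 change of −0.46. The median member changed by 0.02 in UIC and 0.06 in *nup107* MO. Over the 77 tested members the changes ranked alike in the 2 conditions (Spearman's rho 0.83 across genes, which share libraries and clutch and are not independent). These early movers were picked out after their values were seen and were not tested. The cutoff for gains is larger than that for losses, so the 2 counts cannot be compared. The share of all tested genes past these cutoffs was not counted, so the counts describe the members alone.

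**Figure D3:**
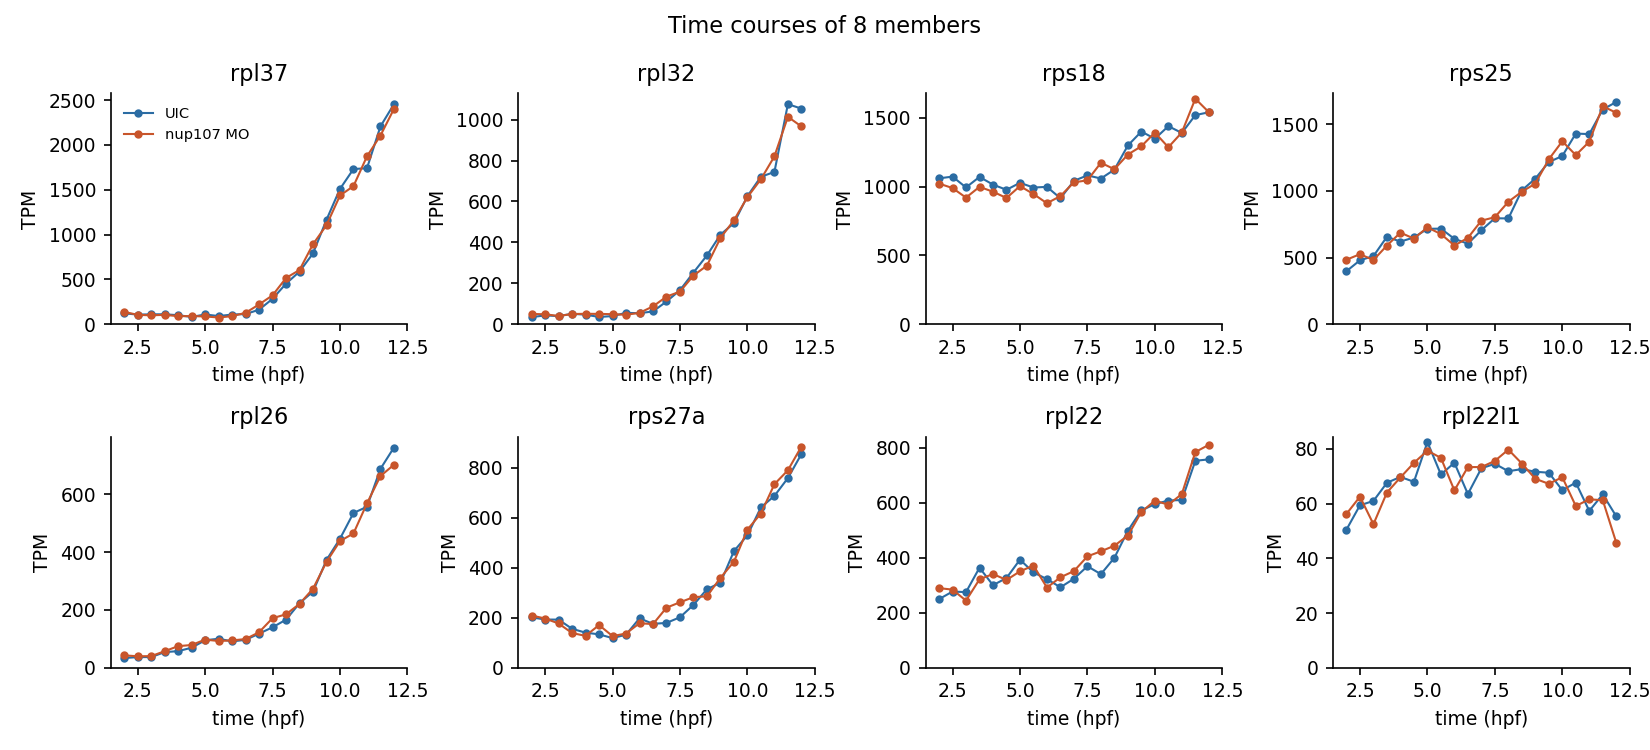
TPM (y axis, from 0, a scale for each panel) against time in hpf (x axis) for 8 members, with 1 point per library, blue for UIC and orange for *nup107* MO. *rpl37* and *rpl32* climb from near 100 and 40 TPM, *rps18* starts near 1000 TPM, *rpl26* gains and *rps27a* loses before 5 hpf, and *rpl22l1* stays between 45 and 83 TPM while *rpl22* rises.

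The members that did not rise in UIC were *rpl22l1*, *rpl7l1* and *rps27*. *rpl22l1* is a paralog of *rpl22*, and in mammals its protein can replace that of *rpl22* in the large subunit. It had 50.5, 67.6 and 82.5 TPM as its lowest, median and highest early level in UIC and 55.4, 64.9 and 71.6 TPM late, with full overlap (log2 change −0.01 ± 0.11, limma adjusted p = 0.910). *rpl22* itself rose from 312.3 ± 51.8 TPM to 628 ± 94.9 TPM, a log2 change of 1.01 ± 0.12. Scaled by median ratios, *rpl22l1* had a log2 change of 0.47 (limma adjusted p = 0.000306).

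*rpl7l1*, a relative of *rpl7*, had 146 ± 26.1 TPM early and 157 ± 18.9 TPM late in UIC (log2 change 0.11 ± 0.12, limma adjusted p = 0.403), and passed when scaled by median ratios (0.60, adjusted p = 0.00325). *rpl7* rose from 127 ± 38.4 TPM to 709 ± 163 TPM, a log2 change of 2.49 ± 0.20. *rps4x*, the only copy of *rps4* among the members and X-linked in humans, rose by 2.77 ± 0.16 from 100 ± 10.6 TPM. *rpl3l*, the paralog of *rpl3* found in mammalian muscle, was listed at 0 in every early UIC library and at no more than 0.17 TPM in any late one, whereas *rpl3* rose from 137 ± 11.7 TPM to 701 ± 157 TPM. How well the quantification divided reads shared by close copies cannot be told from TPM for these pairs.

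*rps27*, a zinc-binding small subunit protein, was listed at low TPM throughout. For *rps27*, *rpl12* and the second *rpl34* row, whether low TPM reflects the transcripts, the gene model or reads shared with other copies cannot be told from these values. In UIC its lowest, median and highest levels were 2.53, 6.77 and 8.52 TPM early and 3.19, 6.50 and 8.58 TPM late (log2 change −0.07 ± 0.22, limma adjusted p = 0.778). In *nup107* MO they were 4.88, 7.90 and 11.3 TPM early and 3.81, 4.33 and 8.54 TPM late, and the fall of −0.56 ± 0.17 passed (limma adjusted p = 0.00678) but not when scaled by median ratios (−0.12, adjusted p = 0.491). The difference between the 2 conditions did not pass (−0.49 ± 0.23, limma adjusted p = 0.304). *rps29*, another zinc-binding small subunit protein, rose from 22.3 ± 2.39 TPM to 85.7 ± 26.1 TPM. The second *rpl34* row (gene1837) rose from 0.554 ± 0.477 to 2.04 ± 0.518 TPM and the main row (gene7213) from 43.2 ± 5.18 to 500 ± 148 TPM.

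Among the proteins of the stalk, which recruits translation factors to the ribosome, the 3 P proteins rose by less than the median member, unlike *rpl12* above. *rplp0*, which anchors the other P proteins, rose in UIC from 212 ± 28.3 TPM to 397 ± 41.4 TPM (log2 change 0.91 ± 0.10), *rplp1* from 355.5 ± 37.5 to 705 ± 103 TPM (0.98 ± 0.11) and *rplp2* from 114 ± 7.89 to 207.4 ± 46.3 TPM (0.83 ± 0.13). The members' median change was 1.83. *rpsa*, a small subunit protein also known as the laminin receptor, rose by 1.70 ± 0.17, near that median, from 98.5 ± 13.9 to 330 ± 93.9 TPM. *rps25*, a small subunit protein needed for some kinds of internal initiation, was the other member among the most abundant and rose by 1.28 ± 0.14, from 576 ± 114 to 1386 ± 209.4 TPM.

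Lists of related machinery were counted beside all tested genes, of which 29.5% rose and 47% fell in UIC, with a median log2 change of −0.26. *gnb2l1* (RACK1) and *fau*, whose ribosomal proteins fall outside the symbol rule, rose by 1.45 and 1.25 on the log2 scale in UIC. Of the 14 tested translation factors known as TOP mRNAs, 11 rose and 1 fell, with a median of 0.59. *eef1a1*, the elongation factor that brings aminoacyl-tRNA to the ribosome, had means of 380 and 6501 TPM, while *eef1b2*, a subunit of its exchange factor, had 387 and 223 TPM. Of 36 tested ribosome assembly genes 23 rose and 6 fell (median 0.71). For RNA polymerase I, 3 of 13 genes rose and 6 fell (median −0.29), shares near those of all tested genes. Of 72 mitochondrial ribosomal protein genes 14 rose and 38 fell, with a median of −0.41, which became 33, 25 and 0.07 when scaled by median ratios.

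Nup107 depletion left the set as a whole close to UIC. The summed level in *nup107* MO was from 0.913 to 1.13 times that in UIC at the 21 time points, with a median of 1.01, and was the higher at 13 of them. The rises in the 2 conditions ranked nearly alike over the 77 tested members (Spearman's rho 0.996 across genes of the same libraries). Whether the *nup107* MO minus UIC difference of a gene changed between 2 to 5 and 9 to 12 hpf was tested with limma. No member passed, where 1.42% of all tested genes did. At an unadjusted p under 0.05, 4 of 77 members and 2467 of 15011 genes passed.

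To find members whose course differed, Gaussian processes were fitted to UIC, to *nup107* MO and to both together, and a gene was called where the likelihood ratio (LR) of separate against joint fits was over 0. Of the 77 tested members 5 were called, a share near that of all tested genes, of which 7.23% were called and 5.26% were called higher in *nup107* MO. All 5 were higher. They are *rpl19* (LR 10.9), *rpl4* (9.11), *rpl5* (3.21), *rpl8* (2.53) and *rplp0* (1.59), all of the large subunit. The median LR was −11.2 over the members and −6.76 over all tested genes. The limma test over the 21 pairs of time points called 14 members, 12 higher and 2 lower, where 15.1% of all tested genes were called, 10.3% higher and 4.8% lower, so that 68.2% of all calls were higher. Its calls included all 5. Scaled by ERCC spike-ins 18 members were higher and 0 lower, with 18.4% of all tested genes called and 98.1% of all calls higher. Scaled by median ratios 5 were higher and 2 lower, with 14.9% of all tested genes called and 53.0% of all calls higher. *rpl19* and *rpl4* were called by the likelihood ratio under each scaling, *rpl5* was not when scaled by median ratios (LR −2.82), *rpl8* was not when scaled by ERCC spike-ins (−0.45), and *rplp0* was not under either (−1.48 and −0.61). Scaled by ERCC spike-ins 4 members were called, with *rpl28* gained (LR 1.86).

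*rpl4*, a protein that lines the exit tunnel, stood above UIC at each of the 21 time points. Its lowest, median and highest early levels were 192, 219.03 and 264 TPM in UIC and 240.8, 283 and 327 TPM with the MO, and the late ones were 341, 466 and 607 TPM and 429, 543 and 708 TPM. The ranges overlapped in each window while each pair differed in the same direction. The mean log2 difference was 0.30 ± 0.02 (SE, limma over 21 pairs, adjusted p = 1.19e-07), with single time points from 0.15 to 0.58.

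*rpl19*, a protein that reaches across to the small subunit, was higher at 20 of 21 time points, by 0.28 ± 0.04 (limma adjusted p = 8.53e-05). Its lowest, median and highest levels were 119, 139 and 170 TPM in UIC at 5.5 to 8.5 hpf and 117, 182 and 222 TPM with the MO. The largest gap of *rpl19* lay in that window, at 0.39 ± 0.08, against 0.23 before and 0.23 after it. It did not pass there (limma adjusted p = 0.122), and whether it exceeded the gaps of the other windows was not tested. *rplp0* was higher at 20 of 21 time points, by 0.21 ± 0.04 (limma adjusted p = 0.00179), with 169, 207.9 and 260 TPM early in UIC and 235, 274 and 305 TPM with the MO. Its early difference was 0.35 ± 0.07 and its late one 0.11 ± 0.04. The change between them (−0.24 ± 0.08) had a limma unadjusted p of 0.00862 and did not pass after adjustment (adjusted p = 0.146). *rpl5* was higher at 19 of 21 time points, by 0.16 ± 0.03, and *rpl8*, a protein near the peptidyl transferase centre, at 16 of 21, by 0.11 ± 0.03 (limma adjusted p = 3.51e-04 and 0.0163).

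**Figure D4:**
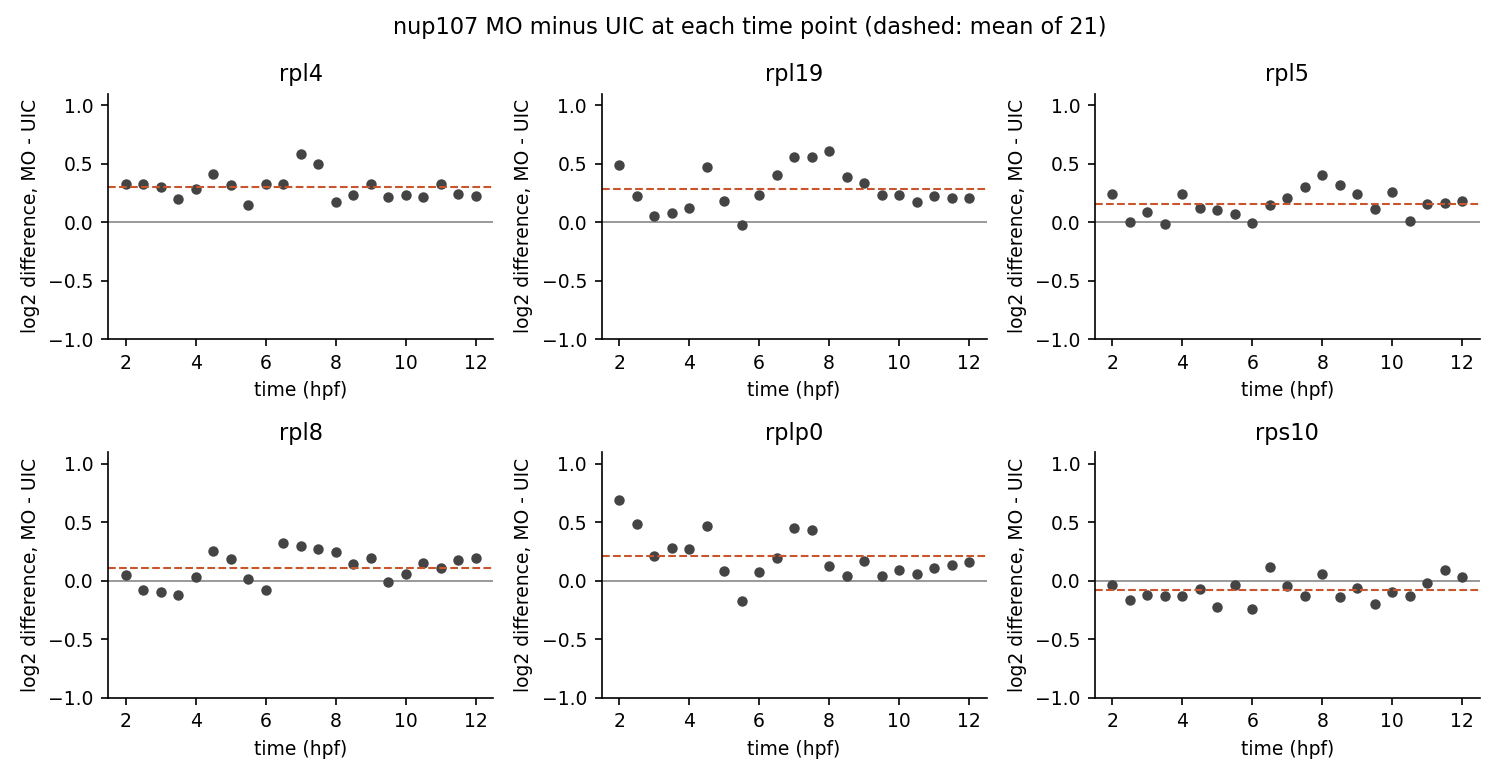
Difference in log2(TPM + 1) between *nup107* MO and UIC (y axis) at each of 21 time points in hpf (x axis) for the 5 members called by the likelihood ratio and for *rps10*. Points are single pairs of libraries, the grey line is 0 and the dashed line the mean of 21 pairs. All points of *rpl4* lie above 0, and 17 of 21 points of *rps10* lie at or below it.

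Lower members were few and small in size. *rps10* exceeded UIC in 4 of the 21 pairs, and its mean log2 difference was −0.08 ± 0.02 (limma adjusted p = 0.0263). It did not pass when scaled by ERCC spike-ins (−0.01), which moved the median of all genes from 0.01 to 0.06. The other members at the low end, *rps15a* (−0.09), *rpl27a* (−0.08) and the second *rpl34* row (−0.08), did not pass, and *rpl29*, at the high end, did (0.13 ± 0.03, limma adjusted p = 0.00815) but not when scaled by median ratios. The mean differences of 73 of the 77 tested members lay within 0.15 of 0, a range for which all tested genes were not counted.

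Within windows, few members were called. At 2 to 5 hpf 4 of 77 passed, where 7.09% of all tested genes did: *rpl4* (0.31 ± 0.03, limma adjusted p = 0.0120) and *rplp0* (0.35 ± 0.07, adjusted p = 0.0361) were higher, and *rps18* (−0.08 ± 0.02, adjusted p = 0.0321) and *rps10* (−0.13 ± 0.02, adjusted p = 0.0328) were lower. Without the pair of 2.5 hpf no member passed, and only 0.0333% of all tested genes did. The share of all calls that were higher moved from 82.8% to 45.2% by median ratios and 99.1% by ERCC spike-ins. At 5.5 to 8.5 hpf limma called no member and 0.0666% of all tested genes. There 13 of 77 members had an unadjusted p under 0.05, and so had 2303 of 15011 genes. At 9 to 12 hpf 2 members passed, where 0.966% of all tested genes did, *rpl4* (0.25 ± 0.04, adjusted p = 0.0302) and *rpl19* (0.23 ± 0.04, adjusted p = 0.0366). Both calls were lost without any 1 of the 6 pairs from 9.5 to 12 hpf, and 1 was lost without that of 9 hpf. Calls over all tested genes fell as well, to 0.0733% to 0.193% in the first 6 runs and 0.726% in the last.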

How the data were processed

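Reads were stranded and paired-end. With STAR and RSEM the authors mapped and quantified them on Xt9.1 plus ERCC sequences, and the deposited unit is TPM for each gene, without the study's dinucleotide correction. The polyA+ and ribozero tables are identical, so 42 of 84 labelled samples were used, as polyA+ by name and labels. Whether the values are those of the polyA+ or of the ribozero libraries is not known. TPM keep no counts, so no counting error is given.

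Differences are on log2(TPM + 1), which understates changes of low genes. They were tested with limma 3.58.1 in R 4.3.3 over 15011 genes, with time points as blocks for *nup107* MO against UIC. Neighbouring time points are not independent, so these p-values measure only the spread between libraries. Likelihood ratios used sqrt(1 + 1000x/max), a Matern 5/2 kernel and the priors of the study's methods, with Python 3.11.15, numpy 2.4.6 and numba 0.67.0. Both tests were checked on simulated data, with changes larger than the *nup107* MO minus UIC differences of the members and noise independent between genes and libraries. The check does not cover differences of the members' size, steps shared by genes or dependence between time points. RefSeq names came from another assembly and no coordinates were used.

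Named members are the 5 highest and 5 lowest in level, in change over time and in *nup107* MO minus UIC, all members called, and the stalk, *rpsa* and paralog symbols. Members that are named outside this rule were chosen after their values were seen. The members, lists and tests were chosen with earlier results of these data known. Alternatives covered the pseudocount, filter, scaling, moderation, windows and each time point left out. Some genes are not reported here.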

Additional observations from a re-analysis of the deposited data

How the results depend on the processing

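The rise of the members kept its direction under every alternative run for it, with 74 to 76 members called in each condition in either direction. In *nup107* MO these calls include the fall of *rps27*, which passed in every run except that scaled by median ratios. Scaled by ERCC spike-ins the summed ratio was 3.48 in UIC and 3.475 in *nup107* MO, against 3.24 and 3.25. These ratios, and those without the 5 most abundant members, stayed within 1 SD of the late time points over the early mean. That SD holds the rise within the late window, so it is a wide margin and not an error of the ratio. Among named members that did not rise, *rpl22l1* turned to 0.0595 when scaled by ERCC spike-ins, 0.47 by median ratios and 0.0449 between 2 to 3 and 11 to 12 hpf, and ranged from −0.0735 to 0.0427 with a time point left out, above 0 without 4, 5, 11 or 12 hpf. *rps27* turned to 0.34 by median ratios, and ranged from −0.24 to 0.0411 with a time point left out, above 0 without 11.5 or 12 hpf. The causes were not tested.

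Calls of *nup107* MO against UIC were less stable. The 5 likelihood ratio calls became 4 by ERCC spike-ins (890 of all genes), and 3 at an LR over 3, 3 by median ratios and 14 with limma over 21 pairs, for which all genes called went from 1086 to 573, 1208 and 2261. Those 14 became 7 by median ratios, 18 by ERCC spike-ins and 13 to 16 with a time point left out. Of all genes, 15.1% were called in the main fit and 14.9%, 18.4% and 12.8% to 16% under these settings. The 4 calls at 2 to 5 hpf became 2 with no filter and 1 by ERCC spike-ins (7.09%, 1.28% and 2.23% of all genes tested, 26097 genes with no filter). By median ratios 1 member was higher and 4 were lower in that window, against 2 and 2 in the main fit, with 6.32% of all genes called. The direction of the early member calls thus depended on the scaling. With a time point left out the 4 calls became 0 to 5, where 0.0333% to 8.15% of all genes were called. The 2 calls at 9 to 12 hpf became 1 at a pseudocount of 0.1 TPM and 0 by ERCC spike-ins or median ratios (all genes 145, 93, 60 and 105). With a time point left out they became 0 to 1 (all genes 11 to 109). With no replicate block, time points being unpaired, 0 members were called at 2 to 5 hpf and 0 at 9 to 12 hpf, and 53 and 0 of all genes. Beyond sharing a time, UIC and *nup107* MO deviated from their neighbours together at 9 of 19 time points (correlation across genes over 0.1). Over the 19 time points this correlation had a median of 0.08 and ran from −0.21 to 0.23, so pairs did not deviate together throughout. A trend on mean level in limma was chosen after seeing the data.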
